A study of Mus musculus with 12 samples.

Results

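The genes of intraflagellar transport (IFT) and of the BBSome were examined as 1 group of 34, taken by symbol from a list of subunits, motors and partners of the primary cilium transport machinery. All 34 were found in the lung table of 56262 gene identifiers and in the AT2 table of 54532, and all 34 had enough counts to be tested in both. By role, 12 belong to IFT-B, 6 to IFT-A, 3 to the kinesin-2 motor, 2 to the dynein-2 motor, 7 to the BBSome, 2 to the chaperonins that assemble it and 2 to small GTPases of the cilium.

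Poly-A RNA had been sequenced from 12 libraries of C57BL/6 mice in 4 groups of 3. The knockout mice lack Med23, which encodes part of Mediator (a bridge between gene-specific factors and the polymerase), in their T cells. The promoter or Cre that drove the deletion is not given in the sources used here. Lung tumours and adjacent normal lung came from the same 3 knockout mice (102, 217 and 224) at 18 months, so every lung library carries the deletion and no wild-type lung was compared. The other groups are sorted alveolar type 2 (AT2) cells, which make surfactant, taken at an age of 6 months from 3 wild-type animals (176, 177 and 190) and from 3 knockout animals (175, 179 and 191).

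A primary cilium is a single microtubule-based projection found on many cell types, while multiciliated airway cells carry many motile cilia. IFT-B trains, pulled by kinesin-2, carry cargo to the ciliary tip, and IFT-A with dynein-2 brings it back. The BBSome is a coat that rides on these trains and moves membrane receptors out of the cilium, and the same machinery serves Hedgehog signalling and builds motile cilia.

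RFX transcription factors are known to bind an X-box in the promoters of many cilium genes, so the members' promoters were searched for one. The motif searched was GTTNCC and GGNAAC with 0 to 3 bases between them, which reads the same on both strands, in windows of 250 bases before to 50 after each RefSeq start site (build GRCm38.p6). Of the 34 members 30 had a promoter in the RefSeq table, and 2 of them held the motif (6.67%), against 253 of all 27025 promoters of that length (0.936%). With 1 mismatch allowed in the 10 fixed letters, 6 members matched (Ift22, Ift52, Ift57, Bbs1, Bbs4 and Bbs7), and 6.15% of all promoters did. The promoters of Bbs7 (chr3:36613340-36613639, minus strand) and Ift57 (chr16:49699044-49699343, plus strand) held the exact motif, and both genes are among the 6 with the smallest p in the lung comparison, so they are printed here 5′ to 3′ with the match in capitals.
Bbs7: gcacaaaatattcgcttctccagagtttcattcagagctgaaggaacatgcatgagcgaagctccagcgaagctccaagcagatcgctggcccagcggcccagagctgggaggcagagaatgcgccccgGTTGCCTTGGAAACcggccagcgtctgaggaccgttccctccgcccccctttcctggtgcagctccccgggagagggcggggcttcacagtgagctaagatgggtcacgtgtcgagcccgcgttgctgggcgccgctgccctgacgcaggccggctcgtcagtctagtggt
Ift57: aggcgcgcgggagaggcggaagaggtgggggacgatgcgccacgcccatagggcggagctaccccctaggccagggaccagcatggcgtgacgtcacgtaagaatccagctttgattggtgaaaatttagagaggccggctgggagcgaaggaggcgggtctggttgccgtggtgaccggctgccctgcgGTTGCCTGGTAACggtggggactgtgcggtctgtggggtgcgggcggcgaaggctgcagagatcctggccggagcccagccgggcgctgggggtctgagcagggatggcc
The match in Bbs7, GTTGCCTTGGAAAC, begins 121 bases before the start site, and that in Ift57, GTTGCCTGGTAAC, begins 60 bases before it. The other members of smallest p in lung, Traf3ip1, Ift20, Ift172 and Bbs9, held no match, even with 1 mismatch allowed. A match is a description of the letters and shows no binding, and a link of the motif to level was not tested.

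The lung libraries held 65163100 to 77951014 counts each, the AT2 libraries 15943084 to 18913242. Levels are given in CPM, a count divided by the TMM-adjusted size of its library and brought to 1 shared scale. The AT2 libraries held 145800 to 184000 CPM of 10 AT2 markers and 43.6 to 78.2 CPM of 10 multiciliated cell markers. Of the second sum 32.8 to 60.9 CPM came from Tppp3 alone, and Tekt1, Ccdc113, Rsph1, Sntn and Deup1 were each under 1 CPM in every AT2 library. Med23 itself did not pass the test in either comparison (log2 fold change -0.02 ± 0.36 for tumour over adjacent, adjusted p = 0.982, and 0.15 ± 0.15 for knockout over wild-type AT2 cells, adjusted p = 0.984, edgeR's quasi-likelihood test). The deletion is in T cells, and the lung libraries are all knockout, so this is no check of the labels. Both lung libraries of mouse 217 and wild-type AT2 library 177 leaned most to shorter genes: across 34 members, the Spearman correlation of a library's deviation with exon length was -0.49 in tumour 217, -0.56 in adjacent 217 and -0.63 in AT2 177. Over all genes the same correlation was weaker, at -0.25, -0.22 and -0.22, and wild-type AT2 176 came close with -0.17. Beyond the fits with that trend removed, its part in the results was not tested.

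Which cilium transport genes differ between a lung tumour and the lung beside it was asked first. None of the 34 members passed in either direction in edgeR's quasi-likelihood test with Benjamini-Hochberg adjustment, where 7.18% of the 19995 genes tested passed lower in tumours and 2.86% higher. The members' median log2 fold change was -0.16, against 0.04 for all genes. It ran from -1.76 for Traf3ip1 to 1.02 for Ift20, with 20 members below 0 and 14 above (48.1% of all genes lay below 0). In 4 members all tumours lay below all adjacent libraries (18.9% of all genes did so), and in 3 all lay above (11.6%). Within mice, 8 members were lower in the tumour of each of the 3 animals (29.3% of all genes) and 7 were higher in each (28.2%). Unadjusted p fell under 0.05 for 3 members, Traf3ip1, Bbs7 and Ift20, where 24.0% of all genes did so.

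The tumours and adjacent samples came from the same animals, and with the mouse as a block 1 member passed, Traf3ip1, where 9.34% of all genes passed as lower. These are bulk samples, in which fewer cells of a type and less RNA per cell cannot be told apart.

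**Figure D1:**
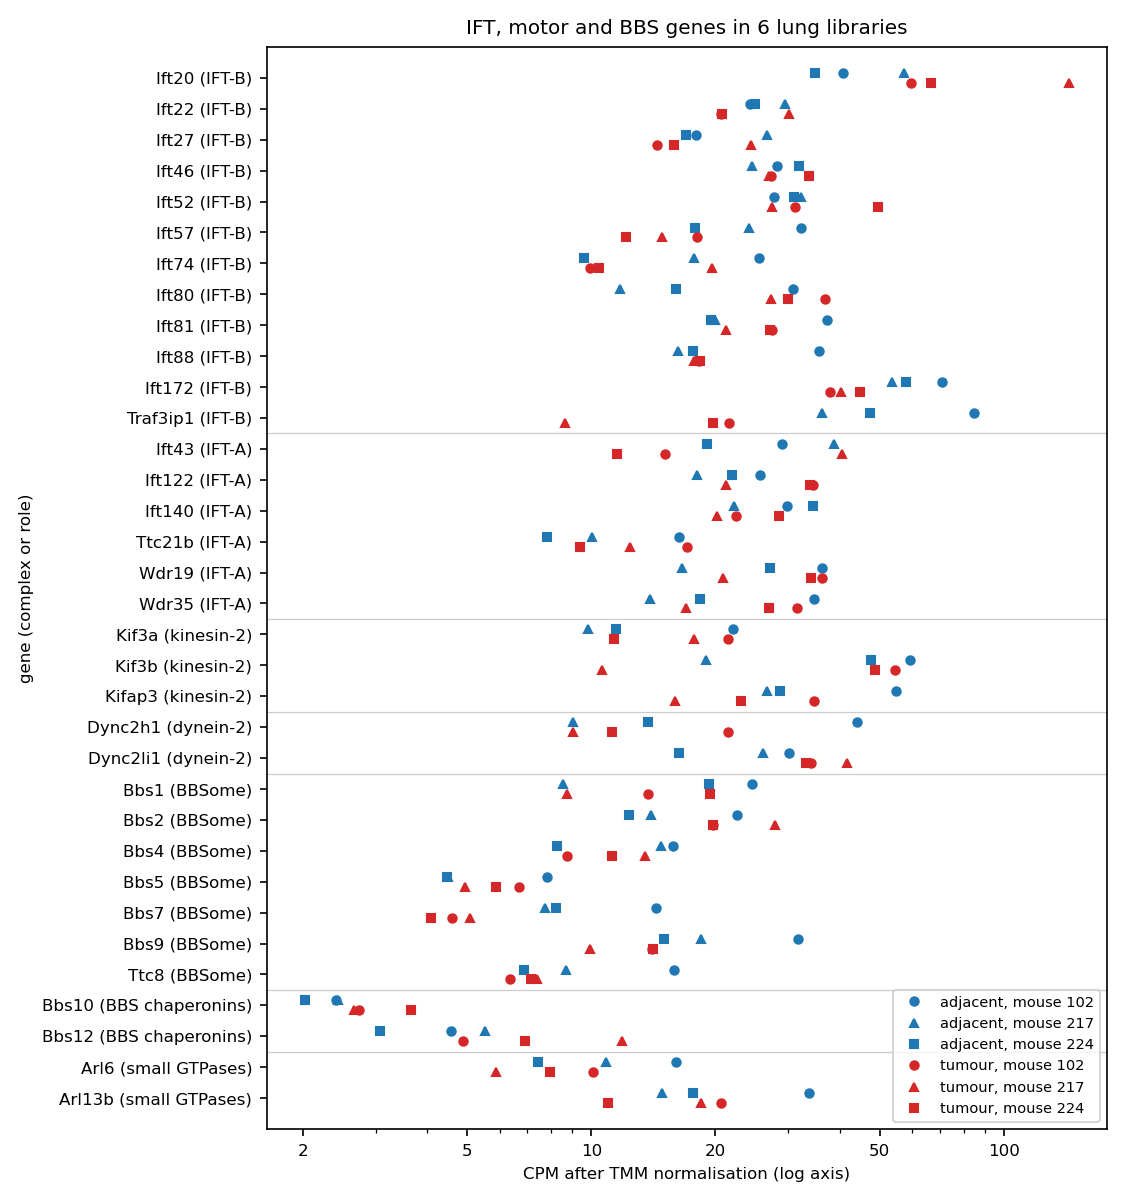
CPM of each of the 34 genes in the 6 lung libraries (log axis), with blue for adjacent lung, red for tumour and a marker shape for each mouse. All red points lie left of all blue ones for 4 genes (Ift172, Traf3ip1, Bbs7 and Bbs9) and right of them for 3 (Ift20, Dync2li1 and Bbs10).

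IFT-B, which makes the core of the train that moves outward, had 8 members below 0 and 4 above, with a median of -0.16. Traf3ip1 (chr1:91494647-91529307, plus strand, GRCm38) encodes IFT54, a subunit that binds microtubules. It measured 21.5, 8.63 and 19.7 CPM in tumours 102, 217 and 224, while adjacent lung of the same mice gave 84.9, 36.2 and 47.4 CPM. Each tumour was below its own adjacent lung and below every other adjacent library. Its log2 fold change was -1.76 ± 0.48 (adjusted p = 0.0579, edgeR), so it did not pass without the pairing. With the mouse as a block it fell by 1.77 ± 0.24 on the log2 scale (adjusted p = 0.0167, edgeR), and it was also lower with the length trend removed as well (adjusted p = 0.0184), where 8.48% of all genes passed as lower. DESeq2's test also called it (adjusted p = 0.00553), as it did 12.9% of all genes as lower, while limma-voom did not (adjusted p = 0.0515). Over the 6 unpaired fits that each left out 1 library its adjusted p was 0.0742 to 0.157.

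Ift20 (chr11:78536361-78541737, plus strand) encodes an IFT-B subunit that also sits at the Golgi. It had the opposite order: 59.5, 143.9 and 66.8 CPM in tumours 102, 217 and 224, against 40.8, 57.2 and 34.9 CPM in adjacent lung. All 3 tumours were above all 3 adjacent libraries, with tumour 217 the highest. The log2 fold change was 1.02 ± 0.42 (adjusted p = 0.188, edgeR). It was 0.94 with the mouse as a block (adjusted p = 0.0505), and with the length trend removed as well it rose by 1.05 (adjusted p = 0.0386, edgeR), where 7.56% of all genes passed as higher.

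Ift172, the largest peripheral IFT-B subunit, was at 38.0, 40.4 and 44.8 CPM in the tumours against 70.9, 53.6 and 57.9 CPM in adjacent lung. The groups did not overlap, and the spread among tumours was small beside that among adjacent libraries. Its log2 fold change was -0.57 ± 0.27 (adjusted p = 0.264, edgeR). Ift57, whose promoter holds the X-box, was at 18.1, 14.8 and 12.2 CPM in the tumours against 32.3, 24.1 and 17.9 CPM in adjacent lung. Each tumour was below its own adjacent lung, but tumour 102 lay just above adjacent 224. The log2 fold change was -0.72 ± 0.35 (adjusted p = 0.26, and 0.0767 with the mouse as a block, edgeR). Of its exon bases 7.86% are shared with the antisense gene Gm15518, and reads of the 2 cannot be told apart without strand. The other 8 IFT-B genes ran from -0.40 (Ift74) to 0.68 (Ift80) in log2 fold change, and their groups overlapped. Ift80 was higher in the tumour of each of the 3 mice, by 0.25, 1.22 and 0.90 on the log2 scale, without passing (adjusted p = 0.382, and 0.104 with the mouse as a block, edgeR).

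IFT-A, the adaptor for the return trip, had a median of 0.18, with 4 of 6 members above 0. Ift122, one of its core subunits, was the highest, with a log2 fold change of 0.45 (adjusted p = 0.478), and Ift43 the lowest, with -0.37 (adjusted p = 0.754, edgeR). No IFT-A gene separated the groups. For Ift43 both libraries of mouse 217 were the highest of their groups, at 40.5 CPM in tumour and 38.7 CPM in adjacent lung, and the other tumours were at 15.1 and 11.5 CPM.

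Neither motor had a member that passed. Of the kinesin-2 motor, which drives the train outward, Kif3b stood at 54.5 and 48.6 CPM in tumours 102 and 224 but 10.6 CPM in tumour 217, and adjacent 217 was also the lowest of its group. Kifap3, the kinesin-associated subunit, was lower in the tumour of each mouse (log2 fold change -0.58 ± 0.42, adjusted p = 0.486, and 0.107 with the mouse as a block, edgeR). Of dynein-2, the return motor, the light intermediate chain Dync2li1 was at 34.1, 41.7 and 33.2 CPM in the tumours against 30.2, 26.0 and 16.3 CPM in adjacent lung. Its tumours all lay above its adjacent libraries, with a log2 fold change of 0.59 ± 0.33 (adjusted p = 0.342, edgeR). The heavy chain Dync2h1 was at 44.2 CPM in adjacent 102 against 13.7 CPM in adjacent 224 and less in adjacent 217, and without adjacent 102 its log2 fold change turned from -0.68 to 0.31.

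The BBSome had the lowest median of the complexes with more than 3 members, -0.32, with 5 of 7 below 0. Bbs7, one of its propeller-bearing subunits and the other gene with the X-box, was at 4.59, 5.09 and 4.08 CPM in the tumours against 14.3, 7.72 and 8.19 CPM in adjacent lung. The groups did not overlap, and adjacent 102 was the highest library. Its log2 fold change was -1.14 ± 0.41 (adjusted p = 0.137, edgeR, and 0.0941 with the mouse as a block). Bbs9, a scaffold subunit, was at 14.0, 9.95 and 14.1 CPM in the tumours against 31.7, 18.5 and 15.0 CPM in adjacent lung. The groups did not overlap, although tumour 224 and adjacent 224 differed by under 1 CPM. Its log2 fold change was -0.78 ± 0.39 (adjusted p = 0.28, edgeR). All 7 BBSome genes were lower in the tumour of mouse 102, but 4 were in that of mouse 217 and 2 in that of mouse 224.

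Bbs10 and Bbs12, chaperonin-like proteins needed to assemble the BBSome, were both higher in the tumour of every mouse without passing. Their log2 fold changes were 0.40 and 0.85 (adjusted p = 0.691 and 0.355, and 0.551 and 0.205 with the mouse as a block, edgeR). Bbs10 is also the least counted member, at 152 counts in its lowest lung library. The small GTPases Arl6, which recruits the BBSome to membranes, and Arl13b, a regulator of ciliary membrane content, had log2 fold changes of -0.52 and -0.40 (adjusted p = 0.542 and 0.658).

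The precision of 3 against 3 libraries sets what these values can say. Without the pairing, the standard error of a member's log2 fold change was 0.42 in the median, and the 95% interval lay wholly within a 2-fold change either way for 5 of 34 members. A 2-fold lower level was outside the interval for 17 members and a 2-fold higher level for 21. With the mouse as a block the median standard error was 0.25, 14 intervals lay within a 2-fold change either way, and a 2-fold lower level was outside for 20 members and a 2-fold higher one for 28. In that fit 8 members had an unadjusted p under 0.05, where 33.1% of all genes did so.

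**Figure D2:**
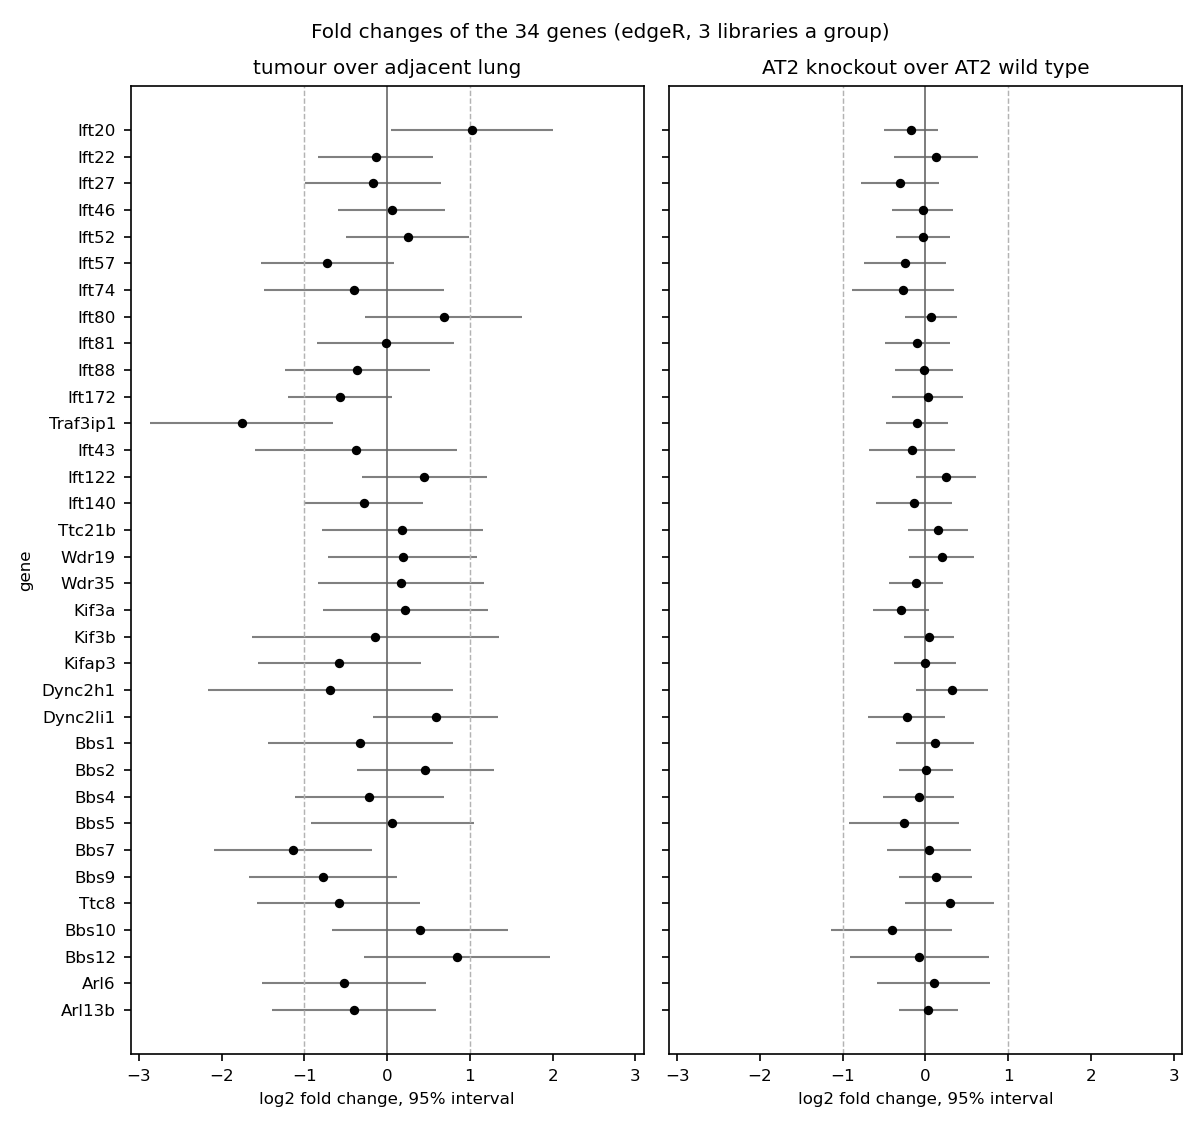
Log2 fold changes (points) with 95% intervals (bars) of the 34 genes in both comparisons, 3 libraries a group, with dashed lines at a 2-fold change. Both fits have the group as their only term. In lung 5 intervals lie between the dashed lines, and in AT2 cells 33 do.

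Much of the spread among adjacent libraries came from mouse 102, whose adjacent library was the highest of the 3 for 25 of 34 members. The highest tumour library was 102 for 15 members, 217 for 11 and 224 for 8. Summed over all 34 members, adjacent 102 held 1029 CPM against 670 and 677 CPM in the others, and the tumours held 732 to 759 CPM. In 26 of 34 members the tumour of mouse 102 was below its adjacent lung, against 13 in mouse 217 and 13 in mouse 224. The members' median log2 ratio of tumour to adjacent lung was -0.364, 0.076 and 0.07 in mice 102, 217 and 224. Over all genes with counts on both sides it was 0.004, -0.016 and 0.109. The counts of members per library or mouse in this paragraph were not taken over all genes. Without adjacent 102 the members' median turned from -0.16 to 0.09, where all genes had 0.09, and 6 members changed sign.

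The same library held more RNA of motile axoneme genes and of the other cilium lists described below. Adjacent 102 was the highest adjacent library for 28 of 32 motile axoneme genes. Their median excess over the mean of the others was 1.16 on the log2 scale, against 0.80 for the members. It was also the highest for 14 of 20 other IFT, motor and BBS genes (median 0.589) and 14 of 20 transition zone genes (0.623). The same held for 9 of 12 centriole and basal body genes (0.475), 10 of 18 Hedgehog genes (0.475) and 6 of 10 ciliogenesis factors (0.331). Its excess went with exon length (Spearman 0.77 over 32 motile axoneme genes and 0.39 over 34 members, which share the libraries). The 17 members of at least median length were 1.8-fold higher there in the median and the 17 shorter ones 1.54-fold. How far multiciliated cells or length add to the members' values was not tested.

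**Figure D3:**
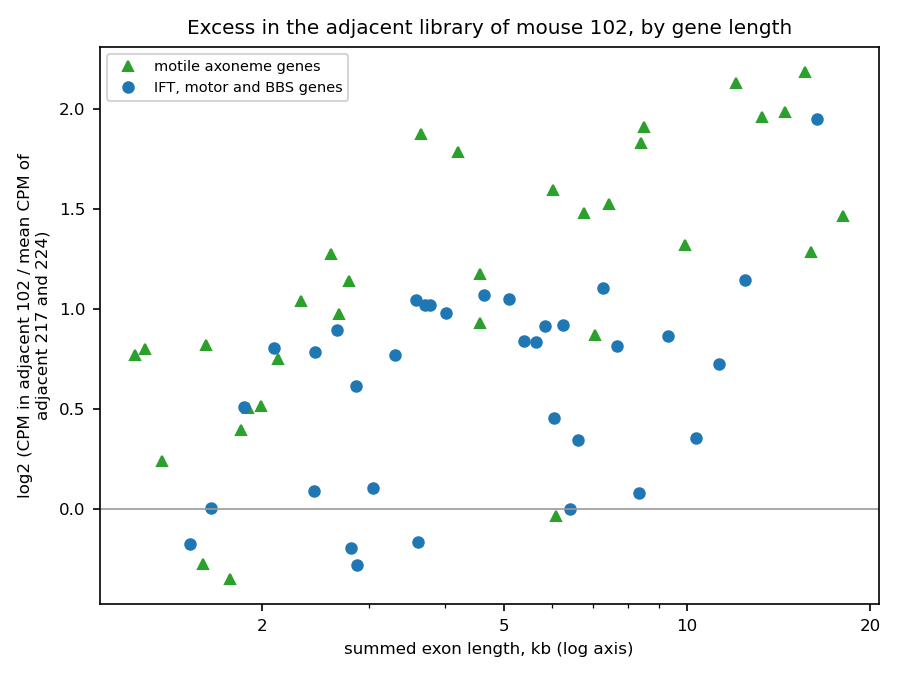
Log2 ratio of CPM in adjacent library 102 to the mean of adjacent 217 and 224 (0.1 CPM added to each) against summed exon length in kb (log axis), for the 34 members (circles) and 32 motile axoneme genes (triangles). Most points lie above 0, and the longer motile axoneme genes lie highest.

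Related cilium lists, chosen beside the members, were read out of the same fit. Of 20 other IFT, motor and BBS genes, 1 fell, the dynein light chain gene Dynlrb2, with a list median of -0.22. Dynlrb2 was at 1.12, 4.85 and 1.94 CPM in tumours 102, 217 and 224, against 44.0, 56.1 and 17.9 CPM in adjacent lung. Every tumour was far below every adjacent library. It fell by 3.90 ± 0.69 on the log2 scale (adjusted p = 0.017, edgeR), a call that was lost without tumour 102, tumour 224 or adjacent 102, where adjusted p reached 0.0606. With the mouse as a block Ttc30b, an IFT-B subunit gene with near-identical copies, passed as well (adjusted p = 0.0315), a value that is uncertain because reads can be split between the copies.

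None of 20 transition zone genes, which form the gate at the base of the cilium, passed, with a median of -0.32. Nphp4 came nearest (log2 fold change -2.11 ± 0.56, adjusted p = 0.0553, and 0.0245 with the mouse as a block, edgeR), then Tmem17 (-1.27, adjusted p = 0.197). None of 12 centriole appendage and basal body genes passed, with a median of -0.09. Fbf1 (log2 fold change 0.99, adjusted p = 0.079) and Cep83 (-1.22, adjusted p = 0.105), both appendage genes, had the smallest p there.

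The axoneme is the microtubule core of a motile cilium, with its dynein arms and central pair. Of 32 motile axoneme genes 28 fell, with a median of -5.44, and their summed level was 36.3 to 89.2 CPM in tumours against 765 to 1661 CPM in adjacent lung. Leaving out tumour 102, or adjacent 102, brought the number that fell to 14, and leaving out adjacent 224 to 18. The largest changes were in Hydin, a central pair protein (fell by 8.38 on the log2 scale, adjusted p = 0.0101), and the axonemal dynein heavy chains Dnah12 (fell by 7.73, adjusted p = 0.0281) and Dnah5 (adjusted p = 0.0213, edgeR). These folds rest on tumours at or near 0 counts. Dnah12 lost its call without tumour 224, adjacent 102 or adjacent 224, with adjusted p up to 0.0908, and Dnah5 without tumour 102, adjacent 102 or adjacent 224, up to 0.0826. Of 10 multiciliated cell markers 7 fell, from 433 to 750 CPM in sum in adjacent lung to 9.53 to 33.6 CPM in tumours, while the members summed to 732 to 759 CPM in those tumours.

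**Figure D4:**
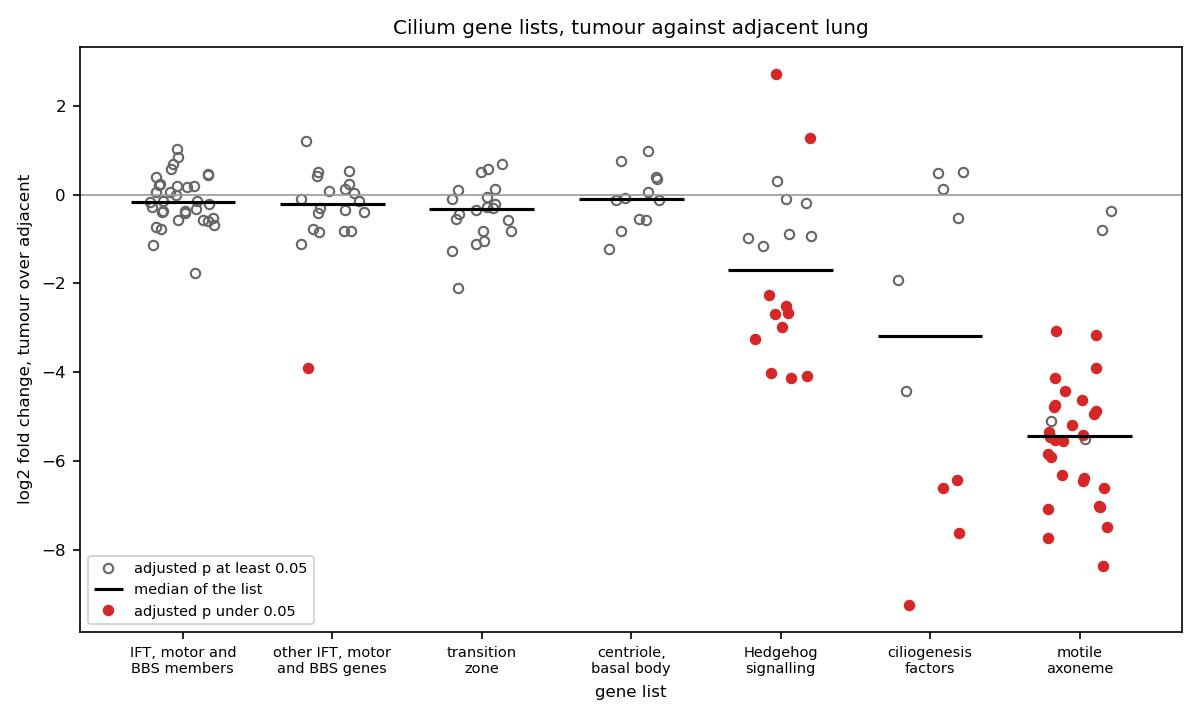
Log2 fold change of tumour over adjacent lung for every tested gene of the 34 members and 6 related lists, filled where adjusted p is under 0.05, with a bar at each median. The members and the transition zone and basal body lists centre near 0, with no filled point among the members, while the motile axoneme list centres at -5.44.

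Of 10 transcription factors of ciliogenesis 4 fell. Foxj1, the master factor of motile cilia, was at 1.82, 3.29 and 0.64 CPM in the tumours against 184, 162 and 153 CPM in adjacent lung (fell by 6.44 ± 0.66 on the log2 scale, adjusted p = 0.00592, edgeR). Its call held in each of the 6 fits that left out 1 library. Myb fell by 7.62 (adjusted p = 0.0101) and Trp73 by 6.60 (adjusted p = 0.0159, edgeR), the second losing its call without tumour 102, adjacent 102 or adjacent 224 (adjusted p up to 0.0635). Mcidas, a coactivator of multiciliated cell fate, had no count in any tumour and was at least 71-fold lower there, against a floor of 3 counts over the group, and its call was lost with the mouse as a block (adjusted p = 0.0527, edgeR) and without tumour 102, tumour 224, adjacent 217 or adjacent 224 (adjusted p up to 0.0786).

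Among the RFX factors, whose motif was searched above, none passed. Rfx2 had a log2 fold change of -1.93 ± 0.51 (adjusted p = 0.0531, and 0.0258 with the mouse as a block, edgeR). The others were at 0.48 (Rfx1), -0.52 (Rfx3), 0.13 (Rfx5) and 0.50 (Rfx7), with adjusted p from 0.525 to 0.871. The exact X-box stood in 4 of 17 transition zone promoters (23.5%) and in 3 of 19 of the other IFT, motor and BBS genes (15.8%), both larger shares than the members' 6.67%. It stood in none of 28 motile axoneme, 11 centriole appendage and basal body, 14 Hedgehog and 9 ciliogenesis factor promoters. With 1 mismatch allowed, 12 transition zone promoters (70.6%), 6 of the other IFT, motor and BBS genes (31.6%) and 14 motile axoneme promoters matched.

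Hedgehog signalling runs through the primary cilium, and 9 of its 18 listed genes fell and 2 rose, with a list median of -1.70. The target Gli1 fell by 2.50 ± 0.41 on the log2 scale (adjusted p = 0.0144), while the receptor and target Ptch1 was at -0.89 ± 0.44 without passing (adjusted p = 0.277, edgeR). The ligand Dhh (fell by 4.12, adjusted p = 0.0489), the antagonist Hhip (fell by 4.09, adjusted p = 0.0498) and the co-receptor Gas1 (fell by 4.03, adjusted p = 0.0107) changed most. The ligand Shh (log2 fold change 2.73 ± 0.37, adjusted p = 0.0092) and the transducer Smo (73.8, 58.5 and 93.3 CPM in tumours, 32.0, 29.4 and 31.3 CPM in adjacent lung, adjusted p = 0.0344, edgeR) rose. With 1 library left out, 1 to 7 of the list fell (1 when it was tumour 224 or adjacent 224). The calls of Dhh and Hhip held in 1 of 6 such fits each, that of Gli1 in 4 and that of Gas1 in 6, while that of Smo held in 1 (adjusted p up to 0.125) and that of Shh in 6. Smo also lost its call with library totals in place of TMM (adjusted p = 0.0956) and with no filter on low counts (0.0536). Without both libraries of mouse 217, 2 of the list fell and neither rise held (adjusted p = 0.0523 for Shh and 0.0716 for Smo, edgeR). Markers of other cell types also differed in these tumours. Of fibroblast markers 1 of 8 fell (5 of 8 with the mouse as a block), with a list median of -1.59 and a sum of 515 to 1077 CPM in tumours against 1586 to 2126 CPM in adjacent lung. Of smooth muscle markers 3 of 6 fell (median -2.19, 76.97 to 270.5 against 280.5 to 1102 CPM), of mesothelial markers 2 of 5 (median -3.75, 152 to 207.5 against 185 to 379 CPM) and of club cell markers 4 of 7 (median -3.47, 1752 to 3871 against 18100 to 38870 CPM). Of endothelial markers 7 of 8 fell, their sum running from 665 to 682 CPM in tumours against 2847 to 4439 CPM in adjacent lung, and the 10 AT2 markers summed to 75120 to 228100 CPM in tumours against 21990 to 43110 CPM in adjacent lung, with 2 of 10 higher by the test and 6 with the mouse as a block. In the other lists 3 of 8 AT1, 4 of 5 neuroendocrine, 1 of 7 T cell, 1 of 5 B and plasma cell and 1 of 5 neutrophil markers fell, and no marker of basal cells, macrophages or proliferation passed. With the mouse as a block 3 AT1, 2 neuroendocrine, 4 T cell, 2 B and plasma cell and 3 neutrophil markers fell. Only 4 neuroendocrine and 2 of 5 basal cell markers were tested. The neuroendocrine markers summed to at most 2.45 CPM in tumours and 14.7 CPM in adjacent lung. The part of these cell types in the values above was not tested.

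Whether deletion of Med23 in T cells altered the cilium genes of AT2 cells was read from the sorted cells. None of the 34 members passed, none of 14053 genes did (0.0%), and no member had an unadjusted p under 0.05, where 2.47% of all genes did, in edgeR's quasi-likelihood test. At that unadjusted threshold 347 genes passed, DESeq2 called 1 gene after adjustment, limma-voom 0, and edgeR with no filter on low counts 17. The members' median log2 fold change of knockout over wild type was -0.03, against -0.01 for all genes. Below 0 lay 19 members (51.1% of all genes did), and the range was -0.41 (Bbs10) to 0.32 (Dync2h1). All but 1 member, Bbs10, had a 95% interval within a 2-fold change either way, with a median half-width of 0.43. The groups did not overlap, knockout lower, for 2 members (Ift27 and Kif3a, with 4.11% of all genes doing so) and, knockout higher, for 1 (Ift122, with 4.19%).

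Kif3a, a motor subunit of kinesin-2, had the smallest p. It stood at 23.4, 21.6 and 19.8 CPM in wild-type mice 176, 177 and 190 and at 17.7, 17.7 and 17.3 CPM in knockout mice 175, 179 and 191. The knockout values were alike and all lower, and the wild-type values differed more among themselves. That spread was not particular to Kif3a. Over all genes with at least 20 counts in a pair of libraries, chi-square per degree of freedom was 7.23 to 10.8 between knockouts. Between wild types it was 45.9 to 94.0. The log2 fold change was -0.30 ± 0.15 (unadjusted p = 0.0765, adjusted p = 0.984, edgeR), with a 95% interval from -0.63 to 0.04.

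Dync2h1 measured 20.5, 17.4 and 29.9 CPM in wild-type cells against 29.2, 26.2 and 29.5 CPM in knockout cells, where wild-type 190 overlapped the knockouts (log2 fold change 0.32 ± 0.20). Ift122, of IFT-A, measured 19.1, 14.9 and 18.1 CPM in wild-type cells against 22.1, 19.2 and 20.7 CPM in knockout cells, the lowest knockout being just above the highest wild type (0.25 ± 0.17). Ift27, a GTPase-like IFT-B subunit, measured 7.53, 8.89 and 7.12 CPM in wild-type cells against 6.37, 7.08 and 5.61 CPM in knockout cells, the groups again barely apart (-0.30 ± 0.21). For Ift122 and Ift27 the gap between the groups was smaller than the range within either group. Bbs10 measured 3.18, 3.38 and 2.24 CPM in wild-type cells against 2.45, 1.65 and 2.53 CPM in knockout cells, overlapping (-0.41 ± 0.34), with 30 counts in its lowest library. Ttc8, a BBSome subunit, measured 5.88, 10.7 and 7.75 CPM in wild-type cells against 9.64, 11.5 and 8.68 CPM in knockout cells, also overlapping (0.29 ± 0.25). The adjusted p of each was 0.984. With the length trend removed, the log2 fold change was 0.184 for Dync2h1 and 0.155 for Ift122. In that fit it was -0.253 for Ift27, -0.358 for Bbs10 and 0.312 for Ttc8.

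Wild-type library 177, which leaned most to shorter genes, was the highest of the 6 for 15 of 34 members, and left out it moved the median to 0.04 and changed the sign of 12 members. Other lists in AT2 cells likewise had no gene that passed, among those with enough counts to be tested. Tested there were 9 of 18 Hedgehog genes, 18 of 32 motile axoneme genes and 5 of 10 multiciliated cell markers, and no smooth muscle or T cell marker. In these cells Foxj1 was at 0.516 to 2.59 CPM, and the members summed to 695 to 739 CPM.

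Levels between genes can be compared only per length, here CPM per kb of all annotated exons. Ift20 was the highest member in all 4 groups, with means of 59.1 ± 30.7 in tumours, 29.1 ± 7.58 in adjacent lung, 48.3 ± 8.06 in wild-type and 42.7 ± 0.00853 in knockout AT2 cells (SD, n = 3). The lowest was Bbs10 in adjacent lung (0.75) and both AT2 groups (0.962 and 0.725), and Dync2h1 in tumours (0.849). At least 1 CPM per kb was reached by 31 members in tumours and 33 in each of the other groups, and the medians over members were 3.85, 4.36, 3.06 and 3.21 in tumours, adjacent lung, wild-type and knockout AT2 cells.

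**Figure D5:**
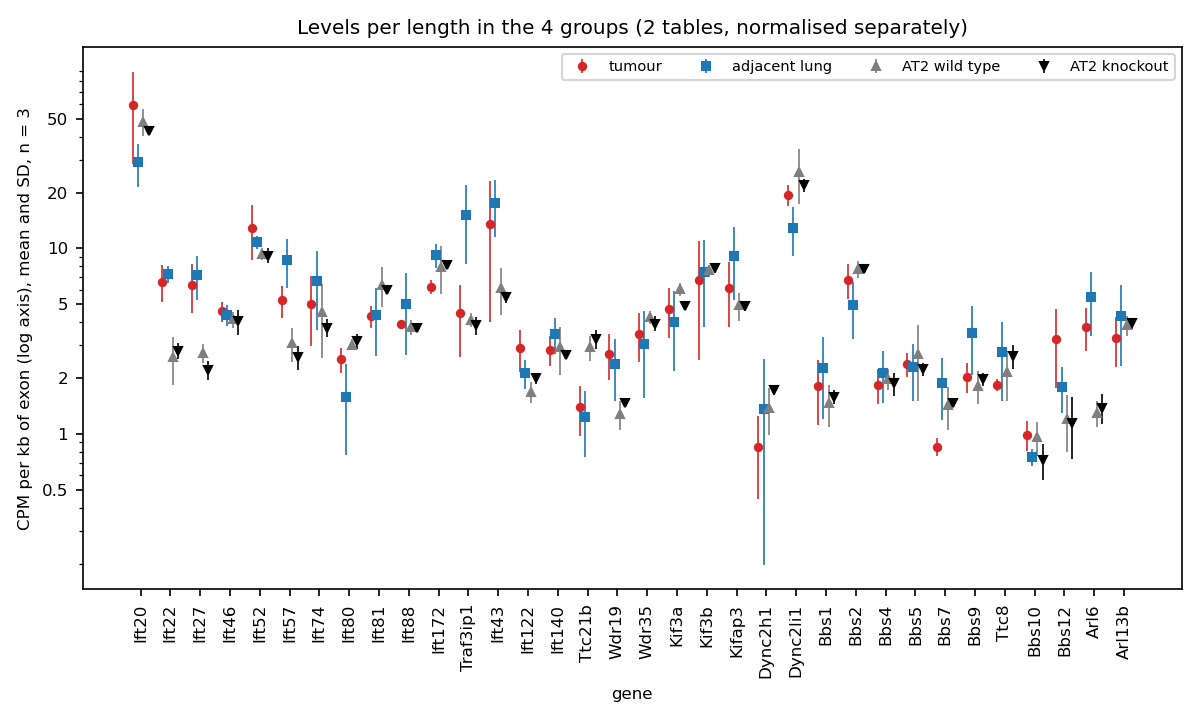
Mean level of each of the 34 genes in CPM per kb of exon (log axis) with the SD over 3 libraries, in tumours, adjacent lung, wild-type AT2 and knockout AT2 cells. Ift20 is the highest in each group, and Traf3ip1 stands higher in adjacent lung than in the other 3 groups.

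The 2 tables were scaled separately, so values across them are set side by side with no test. They also differ in age (18 months for lung, 6 for AT2 cells) and in bulk tissue against sorted cells. All lung libraries are knockout, while the AT2 mean takes in wild-type and knockout libraries. The mean of Traf3ip1 was 16.6 CPM over tumours and 56.2 CPM over adjacent lung, with 12.7 to 16.7 CPM over the 6 AT2 libraries. Ttc21b, an IFT-A gene, averaged 12.9 and 11.4 CPM in tumours and adjacent lung, with 23.0 to 33.1 CPM in AT2 cells. Arl6 averaged 7.96 and 11.4 CPM there, with 2.24 to 3.26 CPM in AT2 cells. For 21 of 34 members (61.8%) the tumour mean was nearer to the AT2 mean on the log2 scale than the adjacent mean was, and the same held for 52.8% of the 13786 genes tested in both tables.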

How the data were processed

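Poly-A RNA-seq libraries, 12 in all, were prepared by a NEBNext Ultra protocol that keeps no strand information, per the labels' protocols. The deposited tables hold raw read counts per gene made by the authors, 1 table for lung and 1 for AT2 cells. Tools named per the submitters' processing notes include HISAT2, StringTie 1.3.3b, Trimmomatic 0.39, DESeq2 1.28.1 and FastQC, with GRCm38 (mm10) as genome. How reads were counted, with which strand setting and annotation release, is not given in the sources used here. Gene names and coordinates came from GENCODE M21. Identifiers without a name (1121 in lung, 123 in AT2) held 0.0921% and 0.0289% of the counts. They were kept under their identifiers, and took part in library sizes and tests where they passed the low-count filter.

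Genes were tested with edgeR 4.0.16 in R 4.3.3 (quasi-likelihood, TMM, low-count filter, Benjamini-Hochberg adjustment, threshold 0.05) within each table, with group as the only term. Fold changes are log2, given ± standard error. Alternatives were library-total scaling, DESeq2's size factors, no filter, DESeq2 1.42.0, limma-voom (limma 3.58.1), removal of the trend with exon length, the mouse as a block, and each library left out. The scripts were tested on simulated counts, drawn without pairing and put through the main fit. In lung, 1.59% of genes given a log2 fold change of 1 either way passed, 5.08% at 2 and 64.6% at 4. In AT2 cells 60%, 96.9% and 100% did. Few genes were changed in the simulation (63, 59 and 65 of 19291 in lung at these sizes). In the real data 2007 genes passed in lung and 0 in AT2 cells. The p-value needed to pass depends on how many genes change. These shares therefore do not give how often real changes of the members' size would be called. Tumour and adjacent samples share animals, so the mouse numbers pair them: deviations from group means correlated over 19995 genes with Pearson r of 0.31, 0.499 and 0.41 for mice 102, 217 and 224. Over the 34 members r was higher, at 0.696, 0.785 and 0.646. No pair of replicates was near-identical. The mice are separate animals by number.

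The members and lists were chosen with earlier results of these data known. Values in every library are given for members that passed or, where fewer than 6 did, for the 6 of smallest p. Of each list up to 3 genes are named, those of largest change among the passed or the 2 of smallest p, besides Foxj1, the Rfx genes, Gli1 and Ptch1. Shh, Smo, Ttc30b and members named for their pattern among libraries were chosen after their values were seen.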

Additional observations from a re-analysis of the deposited data

How the results depend on the processing

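In lung, members called lower were 1 (Traf3ip1) with DESeq2's test, 1 with the replicate block (the mouse) and 1 with the replicate block with the length trend removed, where 1 member (Ift20) was called higher. Genes called numbered 2007, against 3729 with DESeq2's test, 2980 with the replicate block, 3201 with the replicate block with the length trend removed, and 847 without both libraries of mouse 217. Leaving out 1 library at a time gave 598 to 1854 genes and no member called. With library totals in place of TMM the median of all genes went from 0.04 to -0.18 and that of the members to -0.40. The cause of these shifts was not tested.

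In AT2 cells no paired analysis was possible because the groups share no mouse number. The members' median of -0.026 became 0.037 with library totals alone, -0.018 with the length trend removed, and -0.068 to 0.041 with 1 library left out, and no member passed. Genes called were 17 with no filter, 1 with DESeq2's test and 0 to 1 with 1 library left out.

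With 3 libraries a group, a 2-fold change was within the 95% interval of 29 of 34 lung members without the pairing, 20 with the replicate block and 16 with the length trend removed as well, and a missing call does not show equal levels.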
